A study of Mus musculus with 6 samples.

Results

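The genes described here are the hypoxia response and glycolysis genes of mouse embryos with and without Sp3, a transcription factor of the Sp family, whose zinc fingers recognise GC boxes in promoters. They were chosen from a list of 38 gene names, 21 for glucose uptake, glycolysis and lactate handling and 17 for other parts of the hypoxia response. A gene was read by 1 probe set, a group of short oligonucleotides against 1 transcript, and where a gene had several the probe set of highest mean was taken. This gave 34 of the 38 genes, 18 glycolytic and 16 other, among 18193 genes in all. Bnip3l was read only by probe sets annotated to several genes, and Gapdh only by such probe sets and by 3 control probe sets, which are given separately. Eno1 and Gpi1 were not analysed here.

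Total RNA of single hearts, as the labels call the tissue, was hybridised to 1 oligonucleotide array per embryo at embryonic stage E12.5. One group had 3 embryos labelled Sp3 knockout and the other 3 embryos labelled wildtype, lettered a to c in each, with no treatment in either. The mouse strain and the part of Sp3 that the knockout removes are not given in the sources used here, and the labels do not say whether the embryos of a group came from separate litters. Precision is limited by having 3 arrays in a group.

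Cells short of oxygen stabilise the transcription factors Hif1a and Epas1, which otherwise are hydroxylated by the prolyl hydroxylases of the Egln family and degraded. With their partner Arnt they bind a short core element in promoters and enhancers and raise the transcripts of glucose transporters, glycolytic enzymes, Vegfa and many others. The early embryonic heart develops at low oxygen and draws much of its energy from glycolysis. Several of the target genes also carry GC boxes, the elements of the Sp family.

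The labels were first checked on Sp3 itself. On the log2 scale of intensity its probe set read 8.39, 8.34 and 8.61 in the knockout arrays, in letter order, and 9.87, 9.77 and 9.54 in the wildtype arrays. Every knockout array lay below every wildtype array, by 2.42-fold on average (log2 difference -1.27 ± 0.12 SE, limma adjusted p = 0.00254). Its position relative to the deletion is not given, so it speaks for the stretch it matches and for no other. The call ended without knockout a, where the adjusted p was 0.0665, and in the fit without an intensity trend, where it was 0.279.

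The tissue and RNA behind the arrays bear on all later values. Hepatocyte markers had their median level at the 96.8th percentile of all genes and erythroid markers at the 98.7th, while cardiomyocyte markers lay at the 34.6th. Of 20 cardiomyocyte markers 11 were dimmer than the median probe set. Hepatocyte and erythroid markers thus stood far above cardiomyocyte markers on arrays whose labels say heart. The later values are those of this RNA as a whole and cannot be assigned to heart muscle. The brighter ones included Hand2, Actc1 and Myl7. Actc1 averaged 8.69 ± 0.40 over the knockout and 7.61 ± 1.21 over the wildtype arrays (SD, n = 3 per group). Myl7 was at 7.54 ± 0.48 and 6.85 ± 0.47. Myh6 and Nkx2-5 were among the dimmer ones. Myh6, the alpha myosin of heart muscle, averaged 2.92 ± 0.48 over the knockout and 0.91 ± 0.85 over the wildtype arrays (SD, n = 3 per group). Nkx2-5, a cardiac transcription factor, was at 3.91 ± 0.54 and 3.03 ± 0.57, against 13.16 ± 0.12 and 13.34 ± 0.07 for Alb, serum albumin. The log2 ratio of the 3' to the 5' control probe set of Gapdh, a measure of RNA integrity, lay between -0.23 and -0.15 in knockout and between -0.16 and -0.10 in wildtype. That of Actb lay between 0.37 and 0.43 in knockout and at 0.42 in each wildtype array.

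Most of the 34 genes had a higher mean in knockout, but none passed the test over all probe sets. Of the 34, 29 were higher and 5 lower, with a median log2 difference of 0.41 and a range from -0.29 for Pfkfb4 to 1.27 for Ddit4. Over all 18193 genes 47.5% were higher and the median was -0.02. With each array centred on its median, 25 of the 34 were higher, beside 39.1% of all genes. Limma with an intensity trend called 0 of the 34 at an adjusted p under 0.05, where it called 0.0311% of all probe sets, and the smallest adjusted p was 0.400, for Slc2a3. At an unadjusted p under 0.05 it gave 11 of the 34 as higher and 0 as lower, beside 3.20% and 5.51% of all genes (3.25% higher among genes above the median level). Without the trend the count of higher genes at that level was 4, beside 2.82% of all genes, and with median centring 7, beside 2.24%. It was 6 without knockout a, 7 without wildtype a and 19 without knockout b, beside 1.97%, 2.90% and 3.26%. The p-values measure only the spread between these arrays.

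**Figure D1:**
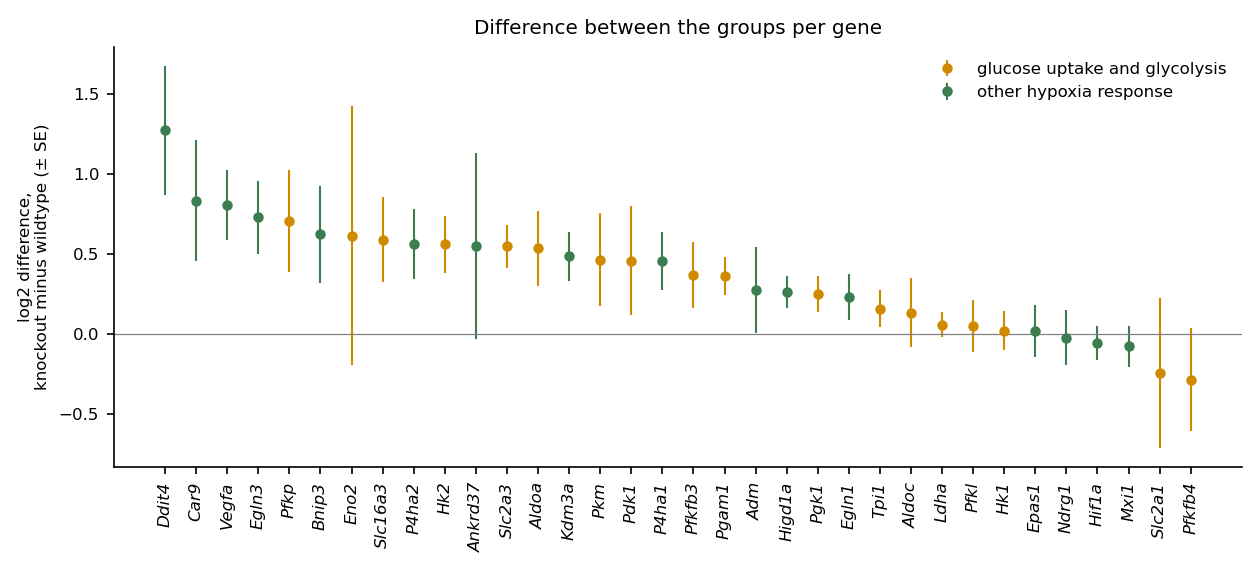
Log2 difference, knockout minus wildtype, of each of the 34 genes with its standard error from the fit (n = 3 arrays per group), ordered by size. The 29 genes from Ddit4 to Epas1 lie above 0 and 5 genes, from Ndrg1 to Pfkfb4, below it.

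The groups did not overlap in 9 of the 34 genes, with all 3 knockout arrays above all 3 wildtype arrays in each of the 9. These were Ddit4, Car9, Vegfa, P4ha2, Kdm3a and Higd1a among the other hypoxia genes and Hk2, Slc2a3 and Pfkfb3 among the glycolytic ones. The same pattern held for 6.02% of all genes and for 5.71% of genes above the median level. The opposite pattern, with all knockout arrays below, held for 0 of the 34 and for 9.04% of all genes. Of the 9, Higd1a, Hk2, Kdm3a, Slc2a3 and P4ha2 were closest between knockout b and wildtype b. These arrays read 10.414 and 10.407 for Higd1a, 8.75 and 8.73 for Hk2, and 8.94 and 8.91 for Kdm3a. Only 3 of the 34 did not overlap when arrays were centred on their medians, against 4.44% of all genes. Without knockout b the count was 22, beside 11.9% of all genes in that smaller set, and without wildtype b it was 14, beside 9.25%.

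The arrays of a group kept a common order over most of the 34 genes. Knockout c was the highest of the 6 arrays for 23 of the 34 genes, beside 20.9% of genes above the median level. Knockout b was the lowest of the knockout arrays for 29 of the 34, beside 35.0% of such genes. Among wildtype arrays, b was highest for 24 of the 34, beside 25.5%. The mean level of the 34 genes, each taken relative to its own mean over the 6 arrays, was 0.24 in knockout a, -0.14 in b and 0.44 in c. In wildtype it was -0.26 in a, -0.02 in b and -0.27 in c. Knockout a and c thus stood above all wildtype arrays, while knockout b lay below wildtype b. Leaving out knockout c gave a median log2 difference over the 34 of 0.25, and leaving out knockout b gave 0.57. The spread within the knockout group exceeded that within wildtype for 25 of the 34 genes, beside 49.2% of genes above the median level, with a median SD of 0.36 in knockout and 0.20 in wildtype.

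**Figure D2:**
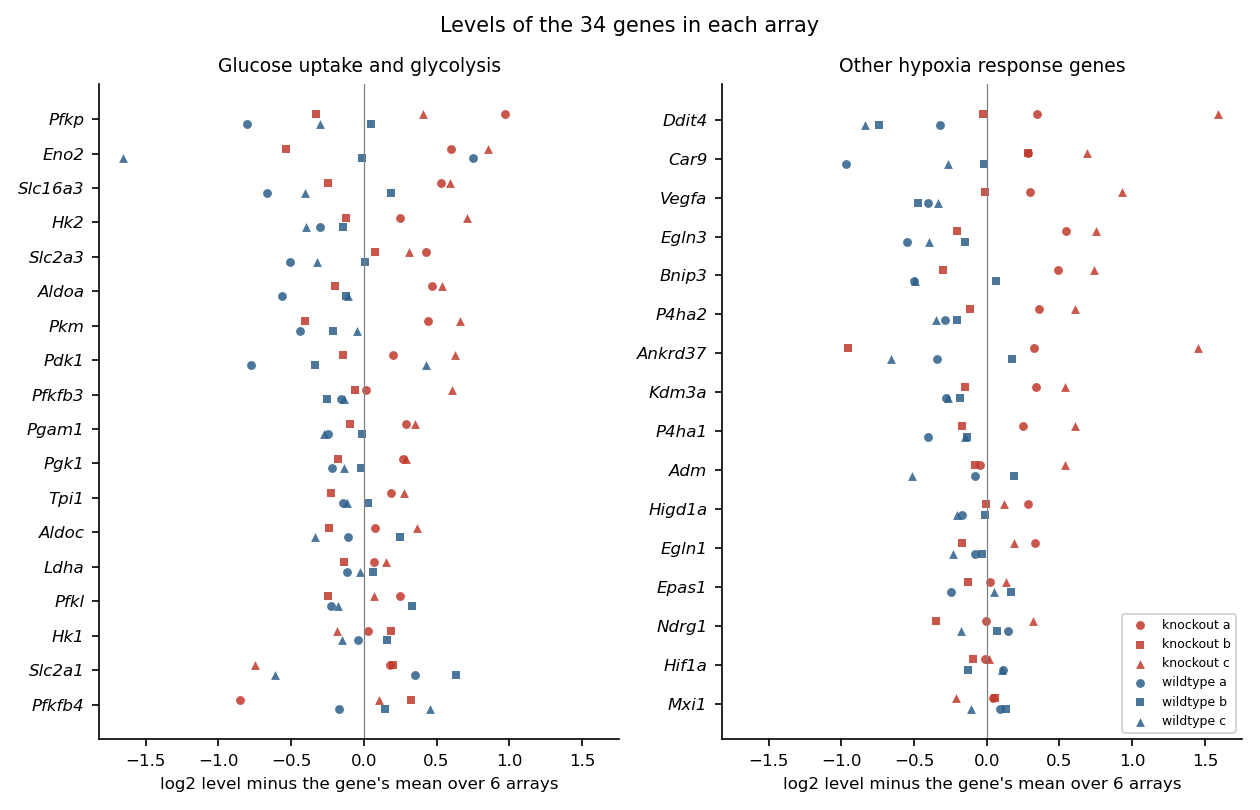
Log2 level of each of the 34 genes in each array, minus the gene's own mean over the 6 arrays, with glucose uptake and glycolysis on the left and the other hypoxia response genes on the right. Knockout arrays are red and wildtype arrays blue, with the letter as the marker shape. Knockout c lies rightmost for 23 genes and knockout b leftmost of the knockout arrays for 29.

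Glycolytic genes and the other hypoxia genes were compared by their median differences, and no test of the gap between them was made. The median log2 difference was 0.37 over the 18 glycolytic genes, of which 16 were higher, and 0.47 over the 16 others, of which 13 were higher. The gap between the medians was -0.10. It was -0.17 with 16 intensity units added and -0.16 with array weights. Unadjusted limma p was under 0.05 for 3 of the 18 and 8 of the 16, all higher in knockout, beside 3.20% of all genes. The median level lay at the 94.0th percentile of all genes for the glycolytic set and at the 74.7th for the others. The mean level of the glycolytic genes ran 0.24, -0.13 and 0.33 over the knockout arrays in letter order and -0.24, 0.04 and -0.24 over the wildtype arrays. That of the others ran 0.24, -0.15 and 0.56, then -0.27, -0.08 and -0.30. Both sets put the arrays of a group in nearly one order, and they parted most in knockout c. Without knockout c the gap between the medians was -0.06, and it was -0.17 without knockout b.

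**Figure D3:**
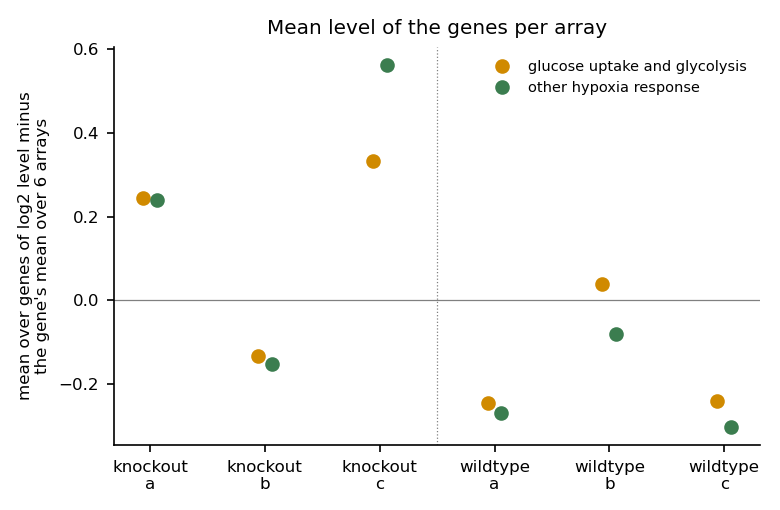
Mean over genes of the log2 level minus the gene's own mean over the 6 arrays, for the 18 glycolytic genes (orange) and the 16 other hypoxia genes (green) in each array. Knockout b lies at -0.13 and -0.15, among the wildtype arrays, and the sets part most in knockout c, at 0.33 and 0.56.

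Among the oxygen-sensing genes, both transcription factors had differences within their spread, and Egln3 was higher in 2 of 3 knockout arrays than in any wildtype array. Hif1a averaged 9.48 ± 0.06 over knockout and 9.54 ± 0.14 over wildtype arrays (SD, n = 3 per group), which differ by -0.06 ± 0.11 SE on the log2 scale. Of the 4 Hif1a probe sets the other 3 were higher in knockout, by 0.11, 0.03 and, at a dim one, 0.76 ± 0.62 SE. Epas1 was at 7.32 ± 0.13 and 7.31 ± 0.21, a difference of 0.02 ± 0.16 SE. A second, dim Epas1 probe set differed by 0.68 ± 0.67 SE. Both groups overlapped for these genes, and Hif1a and Epas1 are mainly controlled by the stability of their proteins, which an array does not read. Egln3, a prolyl hydroxylase whose transcript is itself induced by HIF, read 7.70, 6.95 and 7.91 in knockout and 6.61, 7.01 and 6.76 in wildtype. Knockout a and c stood above every wildtype array and knockout b just below wildtype b, with a log2 difference of 0.73 ± 0.23 SE and limma adjusted p = 0.596. Egln1, the main oxygen sensor of the family, differed by 0.23 ± 0.15 SE, while its second probe set differed by -0.17.

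Of the secreted and surface products, Vegfa, the growth factor of blood vessels, separated the groups most clearly. It read 7.32, 7.01 and 7.95 in knockout and 6.63, 6.56 and 6.69 in wildtype, so the wildtype arrays were close together and all lay below the knockout arrays. The difference was 0.81 ± 0.22 SE, 1.75-fold, with limma adjusted p = 0.499, and it was 0.54 without knockout c. A second, dimmer Vegfa probe set differed by 0.34 ± 0.21 SE with overlap. Car9, a carbonic anhydrase that exports acid, read 4.84, 4.84 and 5.25 in knockout and 3.60, 4.54 and 4.30 in wildtype. The groups did not overlap, but the wildtype levels lie where arrays are noisy, and the difference of 0.83 was 0.49 with 16 intensity units added before log2. Adm, the vasodilator peptide adrenomedullin, was at 5.94 ± 0.35 and 5.66 ± 0.35, a difference within its spread.

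Ddit4, an inhibitor of mTORC1 that cells induce under hypoxia and other stress, had the largest difference of the 34. It read 7.72, 7.35 and 8.97 in knockout and 7.05, 6.63 and 6.54 in wildtype, with knockout c far above the rest. The difference was 1.27 ± 0.40 SE, 2.42-fold, with limma adjusted p = 0.634, and 0.79 without knockout c. Ankrd37, a small ankyrin protein, showed knockout c high and knockout b low still more strongly, at 6.47, 5.19 and 7.60 against 5.80, 6.32 and 5.49. Its difference of 0.55 ± 0.58 SE was -0.04 without knockout c. The mitophagy receptor Bnip3 read 10.63, 9.84 and 10.87 in knockout and 9.63, 10.20 and 9.64 in wildtype, a difference of 0.62 ± 0.30 SE with overlap through the b arrays, or 0.41 without knockout c.

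Kdm3a, P4ha1 and P4ha2 are enzymes of chromatin and collagen that use oxygen and 2-oxoglutarate. Kdm3a, a histone H3 lysine demethylase, read 9.43, 8.94 and 9.63 in knockout and 8.81, 8.91 and 8.83 in wildtype, with no overlap and a difference of 0.49 ± 0.15 SE (limma adjusted p = 0.596). P4ha2, a catalytic subunit of collagen prolyl 4-hydroxylase, was at 6.62 ± 0.37 and 6.06 ± 0.07, a difference of 0.56 ± 0.22 SE with no overlap. P4ha1, the other such subunit, differed by 0.45 ± 0.18 SE at the main probe set, or 0.27 without knockout c. At its second probe set it differed by 0.40 ± 0.18 SE without overlap, though knockout b, at 7.24, barely passed wildtype b, at 7.22. Higd1a, a mitochondrial inner membrane protein, differed by 0.26 ± 0.10 SE at its brightest probe set and by 0.76 ± 0.24 SE at the next. The groups overlapped at neither, though at the brightest knockout b, at 10.414, barely passed wildtype b, at 10.407. At another, dim probe set of Higd1a the difference was -0.32 ± 0.47 SE. Mxi1, a repressor of MYC targets, at -0.08 ± 0.13 SE, and Ndrg1, a stress-induced protein, at -0.02 ± 0.17 SE, stood near 0. At Ndrg1 4 of 5 probe sets were lower in knockout and 1 higher, all with overlap.

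Glucose enters cells through transporters of the Slc2a family. Slc2a3, the high-affinity transporter GLUT3, read 10.46, 10.11 and 10.35 in knockout and 9.52, 10.04 and 9.72 in wildtype. The groups stood apart by a narrow margin between knockout b and wildtype b, with a difference of 0.55 ± 0.14 SE, 1.46-fold, and limma adjusted p = 0.400. All 4 of its probe sets were higher in knockout, and 3 of them without overlap. Slc2a1, the transporter GLUT1 that red cell precursors also carry, read 11.76, 11.78 and 10.83 in knockout and 11.93, 12.21 and 10.96 in wildtype. Both c arrays were about alike and low, all 3 of its probe sets were lower in knockout, and the difference of -0.25 ± 0.47 SE was 0.07 without knockout c and 0.0087 without wildtype b. Erythroid markers were also lowest in knockout c, at a mean level of -0.44 relative to their own means over the 6 arrays, while wildtype c was at 0.0046. The part of that marker level in Slc2a1 was not tested.

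At the entry steps of glycolysis Hk2, Pfkp and Pfkfb3 were higher in mean in knockout, and Hk1 and Pfkl differed by less than their spread. Hk2, the hexokinase of muscle and growing tissue, read 9.12, 8.75 and 9.58 in knockout and 8.57, 8.73 and 8.48 in wildtype, a difference of 0.56 ± 0.18 SE (limma adjusted p = 0.596) with no overlap, or 0.34 without knockout c. Hk1, the ubiquitous hexokinase, was at 9.81 ± 0.19 and 9.79 ± 0.16, a difference of 0.02 ± 0.12 SE. The phosphofructokinase subunit Pfkp was at 7.24 ± 0.65 and 6.54 ± 0.43, and its counterpart Pfkl, the liver and red cell form, at 10.47 ± 0.25 and 10.42 ± 0.31, differences of 0.70 ± 0.32 SE and 0.05 ± 0.16 SE. That of Pfkp was 0.39 without knockout a. Pfkfb3, which makes the activator fructose 2,6-bisphosphate, read 6.68, 6.60 and 7.26 against 6.50, 6.40 and 6.52, without overlap but with a margin between knockout b and wildtype c well inside the knockout spread. Its difference of 0.37 was 0.16 without knockout c. Its second probe set differed by -0.11 ± 0.32 SE. Pfkfb4, of the same enzyme family, was at 5.54 ± 0.63 and 5.83 ± 0.31. Whether the isozymes differ from each other in response was not tested.

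Of the 34, 7 genes belong to the steps from aldolase to pyruvate kinase, and each was higher in mean in knockout, with overlap at its brightest probe set. Of other isozymes of these steps, Pklr, Eno3 and Pgk2 were lower in mean, by -0.31, -0.14 and -1.11, and Pgam2 was higher, by 0.73, the sizes for Pgk2 and Pgam2 not being exact since both lie in the noisy range. Aldoa, the aldolase of muscle and embryo, read 12.40, 11.73 and 12.47 in knockout and 11.37, 11.81 and 11.82 in wildtype, a difference of 0.53 ± 0.24 SE. All 5 of its probe sets were higher in knockout, 2 of them without overlap but by narrow margins. At these knockout b read 11.08 against 11.06 in wildtype b, and 8.98 against 8.94 in wildtype c. Pgam1, phosphoglycerate mutase, read 11.15, 10.76 and 11.21 against 10.61, 10.85 and 10.59, a difference of 0.36 ± 0.12 SE (limma adjusted p = 0.607) with knockout b below wildtype b. Pgk1, phosphoglycerate kinase, differed by 0.25 ± 0.11 SE and was higher at all 3 of its probe sets. Tpi1, triose phosphate isomerase, differed by 0.16 ± 0.12 SE, with 2 of its 3 probe sets higher. Pkm, the pyruvate kinase of most tissues, was at 10.88 ± 0.56 and 10.41 ± 0.20, a difference of 0.46 that ran from 0.25, with knockout c left out, to 0.78, with knockout b left out. Aldoc, a brain aldolase, was at 6.79 ± 0.31 and 6.66 ± 0.29. Eno2, the neuronal enolase, at 3.50 ± 0.74 and 2.88 ± 1.23, was the one gene of the 34 dimmer than the median probe set, so the size of its difference is not exact.

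Gapdh, glyceraldehyde 3-phosphate dehydrogenase, was read by control probe sets that stood outside the test. Its 5' probe set read 13.01, 12.89 and 13.08 over the knockout arrays in letter order and 12.88, 12.90 and 12.95 in wildtype, with knockout c highest and knockout b among the wildtype arrays. At the middle part knockout c was also highest and knockout b lowest of the 6, and at the 3' part knockout a was highest and knockout b lowest. The difference in means was 0.08 at the 5' part, 0.05 in the middle and 0.03 at the 3' part. For Actb, the cytoskeletal actin, the corresponding differences were -0.02, -0.0039 and -0.03.

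At the exit of the pathway stand Ldha, Slc16a3 and Pdk1. Ldha, lactate dehydrogenase A, averaged 12.67 ± 0.15 over knockout and 12.61 ± 0.09 over wildtype arrays, a difference of 0.06 ± 0.08 SE. Slc16a3, the lactate exporter MCT4, read 8.49, 7.72 and 8.56 against 7.30, 8.15 and 7.56, a difference of 0.59 ± 0.27 SE with overlap through the b arrays. Pdk1, the kinase that shuts off pyruvate dehydrogenase, read 9.20, 8.85 and 9.62 against 8.22, 8.66 and 9.43, a difference of 0.46 ± 0.34 SE in which both c arrays were the highest of their groups. It was 0.18 without wildtype a, 0.26 without knockout c and 0.79 without wildtype c.

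The 4 probe sets of Pdk1 disagreed. The other 2 bright ones differed by 0.37 ± 0.37 SE and 0.24 ± 0.18 SE, with overlap. The dimmest read 2.07, 3.55 and 3.14 in knockout and 5.18, 5.36 and 5.33 in wildtype, so every knockout array lay below every wildtype array, with a log2 difference of -2.37 ± 0.49 SE and limma adjusted p = 0.212. It was the largest difference of any probe set of the 34 genes. The knockout levels lie in the noisy range of the arrays, so its size is not exact. Pdk1 lies on chromosome 2 with Sp3, with 3 protein-coding genes between them in the RefSeq annotation of GRCm38.p6. What part of the transcript this probe set reads, and the part of that position in its difference, was not tested.

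**Figure D4:**
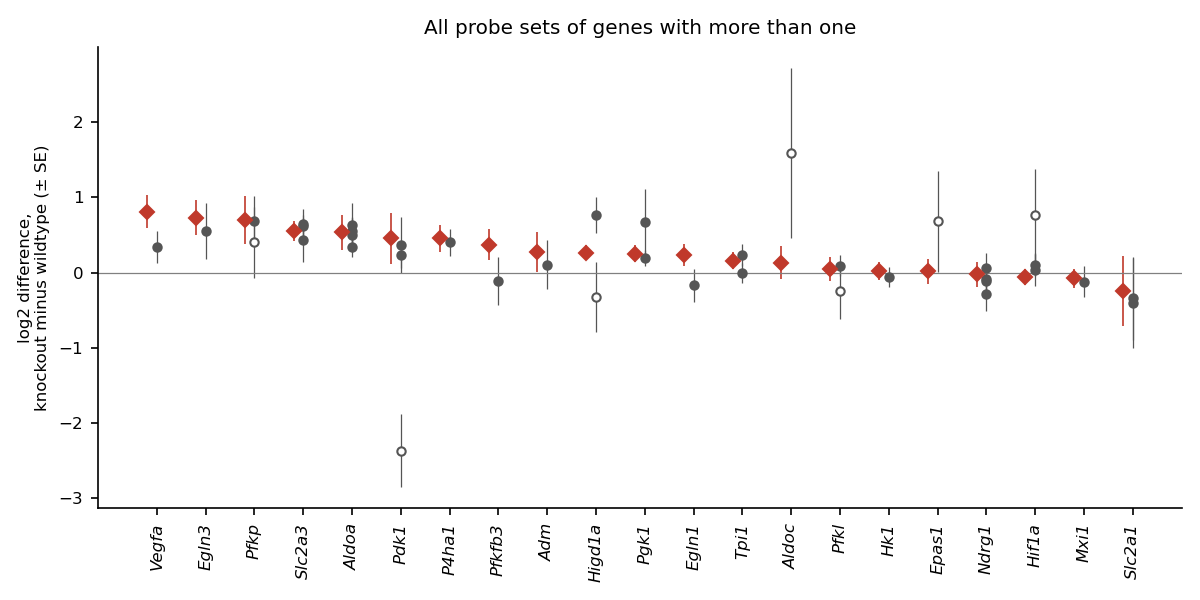
Log2 difference, knockout minus wildtype, with its standard error for every probe set of the genes that have more than 1. Red diamonds mark the probe set of highest mean, filled grey circles other probe sets above the median level of all probe sets and open circles those below it. The open circle at -2.37 is the dimmest probe set of Pdk1.

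Promoter sequence was examined because Sp3 and HIF both bind short promoter elements. Promoters were found in the RefSeq tables (GRCm38.p6) for 31 of the 34 genes, and Slc2a3, Epas1 and Ndrg1 had no entry. The 250 bases before the outermost start of each gene were searched on both strands for the HIF core, ACGTG or GCGTG, and for the GC box GGGCGG that Sp factors bind. Overlapping matches were counted separately, so that CACGTG counts as 2 cores. A core was found in 24 of the 31, 77.4%, beside 38.6% of 27025 promoters of that length and 58.0% of the promoters of genes above the median level. A GC box was also found in 24, 77.4%, beside 33.0% and 60.8%. Both were present in 20, or 64.5%, beside 19.1% and 38.4%. The median G and C content was 64.0%, beside 52.0% and 60.0%, and the part of base composition in these shares was not tested. Only the outermost start of a gene was searched, and which start this tissue uses was not examined. Such matches describe letters in a window and are not binding sites.

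Of the genes with an entry, the promoters of the 2 glycolytic and the 2 other genes of smallest p and of the 2 genes of largest p are shown 5′ to 3′ to set the elements beside the measured differences. Capitals mark each HIF core and GC box. Hk2 is at chr6:82774455-82774704 on the minus strand, Pgam1 at chr19:41911621-41911870 on the plus strand, Vegfa at chr17:46032378-46032627, Egln3 at chr12:54203875-54204124, Hk1 at chr10:62379909-62380158 and Pfkl at chr10:78009808-78010057, all 4 on the minus strand.
Hk2: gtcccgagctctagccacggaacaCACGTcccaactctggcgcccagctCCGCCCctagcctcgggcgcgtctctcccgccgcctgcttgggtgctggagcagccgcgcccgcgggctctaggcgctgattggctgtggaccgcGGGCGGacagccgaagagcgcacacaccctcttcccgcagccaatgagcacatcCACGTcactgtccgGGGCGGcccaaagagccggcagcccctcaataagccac
Pgam1: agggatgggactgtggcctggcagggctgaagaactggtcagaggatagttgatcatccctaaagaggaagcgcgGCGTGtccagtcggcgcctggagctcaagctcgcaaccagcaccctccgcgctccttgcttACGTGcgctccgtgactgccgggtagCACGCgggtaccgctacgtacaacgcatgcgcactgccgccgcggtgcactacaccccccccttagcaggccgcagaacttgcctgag
Vegfa: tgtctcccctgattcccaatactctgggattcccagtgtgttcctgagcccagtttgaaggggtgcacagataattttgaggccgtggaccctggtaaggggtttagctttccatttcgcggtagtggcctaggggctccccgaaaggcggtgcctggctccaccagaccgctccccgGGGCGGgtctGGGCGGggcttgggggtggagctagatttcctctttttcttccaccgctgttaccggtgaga
Egln3: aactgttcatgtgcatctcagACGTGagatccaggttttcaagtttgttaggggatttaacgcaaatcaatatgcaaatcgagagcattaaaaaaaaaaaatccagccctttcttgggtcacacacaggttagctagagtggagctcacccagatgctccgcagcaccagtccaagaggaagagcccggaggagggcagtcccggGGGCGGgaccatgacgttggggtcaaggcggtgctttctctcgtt
Hk1: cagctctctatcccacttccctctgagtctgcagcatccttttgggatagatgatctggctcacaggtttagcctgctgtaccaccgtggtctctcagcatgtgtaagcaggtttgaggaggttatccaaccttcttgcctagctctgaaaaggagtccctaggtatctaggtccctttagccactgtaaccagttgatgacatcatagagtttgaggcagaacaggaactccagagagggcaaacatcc
Pfkl: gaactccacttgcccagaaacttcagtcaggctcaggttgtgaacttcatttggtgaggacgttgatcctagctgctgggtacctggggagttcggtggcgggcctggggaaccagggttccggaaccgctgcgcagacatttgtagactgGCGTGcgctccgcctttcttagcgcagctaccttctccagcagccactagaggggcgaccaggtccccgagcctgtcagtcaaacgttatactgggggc

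Hk2, with a difference of 0.56, had 2 cores and 3 GC boxes, the nearest GC box ending 32 bases before the start. Pgam1, at 0.36, had 3 cores and 0 GC boxes. Vegfa, at 0.81, had 2 GC boxes, 66 and 56 bases before the start, and 0 cores in this window. Egln3, at 0.73, had 1 core and 1 GC box. Hk1, at 0.02, had neither, and Pfkl, at 0.05, had 1 core and 0 GC boxes. Ldha and Aldoa were picked after their values were seen. Ldha had 5 cores and 2 GC boxes with a difference of 0.06, and Aldoa had neither with a difference of 0.53. No relation of these counts to the differences was tested.

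Genes of the same pathway outside the 34 were taken from 3 further lists. Of 16 measured regulators and cofactors of HIF, 5 were higher and 11 lower, with a median log2 difference of -0.05. The coactivator Ep300 differed by 0.30 ± 0.12 SE (limma adjusted p = 0.661) and Cited2, which competes with HIF for such coactivators, by 0.25 ± 0.11 SE, both without overlap. Arnt2, a paralog of the HIF partner Arnt, differed by 0.63 ± 0.31 SE, also without overlap. In 4 of the 16 the groups did not overlap, all higher in knockout, beside 6.02% of all genes. Those of smallest p among the lower ones, Hspa8 at -0.11, Hif1an at -0.20 and Eloc at -0.08, overlapped between the groups. No gene of this list passed over all probe sets, and 2 had an unadjusted p under 0.05, both higher, beside 3.20% of all genes.

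Among 46 further HIF targets 31 were higher and 15 lower, with a median of 0.09, and 0 passed. Unadjusted p was under 0.05 for 9 higher and 2 lower, beside 3.20% and 5.51% of all genes. Wsb1, a ubiquitin ligase subunit, averaged 8.26 ± 0.27 over knockout and 7.76 ± 0.20 over wildtype arrays, a difference of 0.51 ± 0.16 SE with no overlap (limma adjusted p = 0.597). Stc2, a stanniocalcin, differed by 1.31 ± 0.44 SE with overlap, and Tmem45a, a transmembrane protein, was at 4.40 ± 0.65 and 1.93 ± 1.32, in the noisy range, so no size is given for it. On the lower side, Hmox1, heme oxygenase, differed by -0.62 ± 0.25 SE with overlap, or by -0.27 without wildtype b. Ugp2, which makes UDP-glucose, at -0.25 ± 0.11 SE, and Selenbp1, a selenium-binding protein, at -0.26 ± 0.13 SE, did not overlap.

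Isozymes and neighbouring carbohydrate enzymes were mostly lower in mean. Of 28 measured, 8 were higher and 20 lower, with a median of -0.13, and 0 passed. Of all genes 47.5% were higher, and of genes above the median level 43.3%. Unadjusted limma p was under 0.05 for 0 higher and 2 lower, beside 3.20% and 5.51% of all genes. The groups did not overlap in 1 higher and 4 lower, beside 6.02% and 9.04%. Ldhb, the lactate dehydrogenase subunit of oxidative tissue, read 7.82, 7.31 and 7.81 in knockout and 8.30, 8.11 and 8.02 in wildtype, a difference of -0.50 ± 0.16 SE with no overlap (limma adjusted p = 0.601). Tkt and Taldo1, of the pentose phosphate pathway, differed by -0.15 ± 0.07 SE and -0.26 ± 0.12 SE. Of the higher ones, Pdk2, another pyruvate dehydrogenase kinase, was at 5.36 ± 0.19 and 4.83 ± 0.01 with no overlap, a difference of 0.54 ± 0.28 SE. Pgd, also of the pentose phosphate pathway, differed by 0.12 ± 0.14 SE and Pdk4 by 0.44 ± 0.54 SE.

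Markers of cell types that the tissue could hold were read on the same arrays. Macrophage markers were lower in knockout for 10 of 12, 6 without overlap beside 9.04% of all genes, with summed intensities of 1961 to 2734 in knockout and 3113 to 3413 in wildtype, and Ptprc, the CD45 antigen, differed by -0.68 ± 0.19 SE. Cardiomyocyte markers were higher for 16 of 20, 5 without overlap beside 6.02% of all genes, with sums of 1587 to 1651 against 766 to 1477. Hepatocyte markers were lower for 12 of 13, with sums of 40737 to 41638 against 40307 to 47963, and erythroid markers for 10 of 13, with 43708 to 56429 against 50745 to 57530. Mesenchyme and epicardium markers were higher for 9 of 12, with sums of 7677 to 8621 against 6419 to 7827. Endothelial markers were higher for 5 of 9, with 1041 to 1129 against 1098 to 1157, and megakaryocyte markers lower for 4 of 5, with 6434 to 7133 against 6894 to 7408. The mean level of the cardiomyocyte list was 0.52, 0.18 and 0.29 over the knockout arrays in letter order. Over the wildtype arrays it was -0.05, -0.83 and -0.11. That of the macrophage list was -0.07, -0.01 and -0.57 over the knockout arrays and 0.15, 0.33 and 0.17 over the wildtype arrays. In RNA of whole tissue, fewer cells of a type and less RNA per cell cannot be told apart, and the part of these marker levels in the differences of the 34 genes was not tested.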

How the data were processed

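Gene expression was read on 6 oligonucleotide arrays, 3 per group, grouped by sample title. The authors deposited 1 intensity per probe set on a linear scale. GCOS and RMA are named, per the submitters' processing notes, but not what each did, so the program behind the deposited values is unknown. Medians of the 6 arrays lay between 22.5 and 26.7, and no pair of arrays shared the value of more than 1 probe set.

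Log2 was taken with no further normalization. The 64 control probe sets were left out of the tests. Annotation named 1 gene for 34945 of 45037 probe sets, several for 932 and none for 9160. Limma 3.58.1 in R 4.3.3 (lmFit, then eBayes with an intensity trend and robust estimation) compared the groups over all probe sets in a two-sided test. The threshold was 0.05 after Benjamini-Hochberg adjustment, and the fit was tested on simulated data. With probe sets sorted by mean level into 10 classes, the median SD of residuals was 1.27 at the dim end and 0.125 at the bright end. Standard errors are those of this fit. Symbols were checked against GRCm38.p6 by gene identifier, with 34741 matched and 0 changed.

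The 34 genes, the companion and marker lists and the trend were chosen with earlier results of these data known. Named genes were all 34, Sp3, the 3 of smallest p per direction in each companion list, and 2 of the highest mean with 8 fixed defining genes in marker lists, of which the text gives a part.
Ldha and Aldoa beside the shown promoters, and Pklr, Eno3, Pgk2 and Pgam2, were picked after their values were seen. Alternatives were no trend, quantile normalization, median centring, 16 intensity units added before log2, dim probe sets left out, weights per array, a block for the letter, averaging all probe sets of each gene, and each array left out.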

Additional observations from a re-analysis of the deposited data

How the results depend on the processing

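No alternative called any of the 34 genes. The smallest adjusted p of a member in any of them was 0.0626, for Vegfa with the letter as a block, and 21 of the 34 kept their direction in all 14. The count of called probe sets was 14, 0 without the trend, 25 with array weights and 3 to 24 with an array left out. The median over the 34 stayed above 0 throughout, between 0.25 and 0.57. Letters were checked for pairing and the deviations of same-letter arrays correlated at -0.007, 0.05 and 0.08 over all probe sets and at 0.0095, 0.31 and 0.44 over the brighter ones, for a, b and c. Knockout b and knockout c correlated best with the wildtype array of their own letter in both, but knockout a with wildtype b. The letters were therefore not taken as pairs in the main fit, though this does not settle whether b and c were paired. As a replicate block the letter gave 258 called probe sets, 0 of them among the 34. The counts by unadjusted p and by overlap were added to the alternatives after the data were seen. The former, 11, was 4 without the trend, 7 with median centring and 6 to 19 with an array left out. Its share of all genes was 3.20%, then 2.82%, 2.24% and 1.86% to 5.45%. The count by overlap, 9, was 3 with median centring and 9 to 22 with an array left out. Its share of all genes was 6.02%, then 4.44% and 9.25% to 14.5%. For Sp3 the difference without the trend was -1.27 with adjusted p = 0.279, and with an array left out it was -1.37 to -1.20.

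Direction turned for 13 of the 34 and for 5 companion genes, and the cause was not tested. With median centring Ldha was at -0.018, Epas1 at -0.060, Hk1 at -0.056 and Pfkl at -0.028. With quantile normalization Hif1a was at 0.019, Ndrg1 at 0.032 and Eloc at 0.0018. Averaging all probe sets of each gene put Pdk1 at -0.33, Hif1a at 0.21, Hk1 at -0.019, Pfkl at -0.033, Arnt2 at -0.33 and Tkt at 0.016. With an array left out the ranges that crossed 0 were -0.062 to 1.14 for Eno2, -0.0029 to 0.14 for Ldha, -0.61 to 0.066 for Slc2a1, -0.10 to 0.10 for Epas1, -0.039 to 1.17 for Ankrd37, -0.069 to 0.12 for Hk1, -0.064 to 0.23 for Pfkl, -0.15 to 0.0090 for Mxi1, -0.017 to 0.29 for Aldoc, -0.19 to 0.14 for Ndrg1, -0.52 to 0.070 for Pfkfb4, -0.0066 to 0.29 for Pgd and -0.094 to 0.83 for Pdk4.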
